A study of Homo sapiens with 4 samples.

Results

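The imprinted DLK1-DIO3 region at 14q32 holds one of the largest groups of microRNA (miRNA) hairpins in the human genome, and its mature products were followed here in 2 established human lines from colorectal adenocarcinoma, HT29 and HCT15, each grown as parental cells and as spheres. The members were every listed mature miRNA, of either arm, that belongs to one of 46 named hairpin families of the region. They came to 70 of the 1921 names listed for HT29 and 76 of the 2041 listed for HCT15, with 65 member names shared by both lines. They were taken by name and not by a measured value, although earlier results of these data were known when the families were chosen.

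Total RNA was turned into small RNA libraries (TruSeq chemistry) and sequenced. HT29 parental cells were kept in DMEM with 10% FBS and HCT15 parental cells in RPMI with 10% FBS. For spheres, both lines received bFGF and EGF at 10 ng/ml each in DMEM-F12 that held the N2 Plus supplement, and the submitters call these cells sphere-derived cancer stem cells. Penicillin-streptomycin was in every medium, and no genetic change or drug treatment separates the groups. Medium, serum and growth as spheres differ together and cannot be told apart. There was 1 library per line and culture, so no difference has a replicate check and none was tested. In a bulk sample, fewer cells that make a miRNA and less of it per cell cannot be told apart.

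Genes of the DLK1-DIO3 region are imprinted, meaning that each is read from the chromosome of only one parent. DLK1, RTL1 and DIO3 are read from the paternal chromosome, while the noncoding RNAs MEG3, MEG8 and MEG9 and the miRNAs among them are read from the maternal one. The miRNAs are best known from placenta, embryo, brain and mesenchymal cells, and loss of their expression has been described in many tumours. Each hairpin can give a 5p and a 3p mature strand, and the seed near the 5′ end of the strand leads its pairing with messenger RNAs.

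All 49 hairpins of the 46 families were placed on the plus strand of chromosome 14 in GENCODE 29 (GRCh38), in 2 clusters. The proximal cluster, from MIR770 to MIR370 (100852390 to 100911213), spans 58.8 kb and 10 families. Its hairpins MIR431, MIR433, MIR127, MIR432 and MIR136 lie opposite an exon of RTL1, a gene derived from a retrotransposon. The distal cluster, from MIR379 to MIR656 (101022066 to 101066801), spans 44.7 kb and 36 families, and 110.9 kb separates it from the proximal one.

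The sequences below belong to the 8 members with the most reads in HT29, to miR-376b, which shares its seed with miR-376a-3p, and to miR-127-3p, miR-411-5p and miR-655, on which later comparisons turn (these 3 were added after their values were seen). They are RefSeq mature sequences (GRCh38.p14), 5′ to 3′, with the seed, bases 2 to 8, in capitals. The HT29 files give some names without an arm. For those the strand shown is the one that later miRBase releases give that name, 5p for miR-134 and 3p for miR-494, miR-376c, miR-381, miR-889, miR-376b and miR-655.
miR-379-5p: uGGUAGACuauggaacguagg
miR-411-5p: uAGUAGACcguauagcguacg
miR-494: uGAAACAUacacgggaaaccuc
miR-376c: aACAUAGAggaaauuccacgu
miR-376a-3p: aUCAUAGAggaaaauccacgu
miR-376b: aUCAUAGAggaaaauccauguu
miR-381: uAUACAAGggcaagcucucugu
miR-889: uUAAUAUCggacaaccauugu
miR-655: aUAAUACAugguuaaccucuuu
miR-134: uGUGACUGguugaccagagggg
miR-369-3p: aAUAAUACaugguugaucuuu
miR-127-3p: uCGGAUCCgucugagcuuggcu
On chromosome 14 of GRCh38 the strands of miR-379-5p and miR-411-5p lie at chr14:101022071-101022091 and chr14:101023340-101023360 and that of miR-494 at chr14:101029681-101029702, all in introns of MEG8. miR-381 (chr14:101045968-101045989) and miR-889 (chr14:101047949-101047969) lie in introns of MIR381HG, and miR-369-3p (chr14:101065641-101065661) lies in MEG9. miR-134 (chr14:101054694-101054715) has no annotated host, and miR-127-3p (chr14:100883035-100883056) lies opposite an exon of RTL1. Counted from the 5′ end, miR-376a-3p and miR-376c-3p differ by U2A, inside the seed, and A14U. miR-376a-3p and miR-376b-3p differ by C19U and by 1 further base at the 3′ end of miR-376b-3p, and have the same seed. These 3 strands are so alike that reads may be split between them, and how reads matching several miRNAs were treated is not given in the sources used here. miR-379-5p and miR-411-5p differ at 7 positions, of which G2A is the only one in the seed.

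The region was read at a low level in HT29 and was close to the limit of detection in HCT15. Its members took 446 of 5806540 listed reads in HT29 parental cells and 566 of 12794274 in HT29 spheres. Scaled by each library's total of listed miRNA reads, as CPM, the sums were 76.8 (95% Wilson interval 70.005 to 84.3) and 44.2 (40.7 to 48.0). HCT15 was deposited as RPKM, from which read numbers were inferred. Its members summed to 2.59 RPKM, about 16 of 3189984 reads, in parental cells and to 0.527 RPKM, about 2 of 2325418 reads, in spheres. These are 5.02 CPM (3.09 to 8.15) and 0.860 CPM (0.236 to 3.14). The summed CPM of HT29 was thus 15.3 times that of HCT15 in parental cells and 51.4 times in spheres. These compare deposited counts in HT29 with reads inferred from RPKM in HCT15. At the HT29 parental share the HCT15 libraries would have held 245 and 179 member reads. Intervals and limits cover counting error only, as reads without molecular identifiers are not independent molecules.

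**Figure D1:**
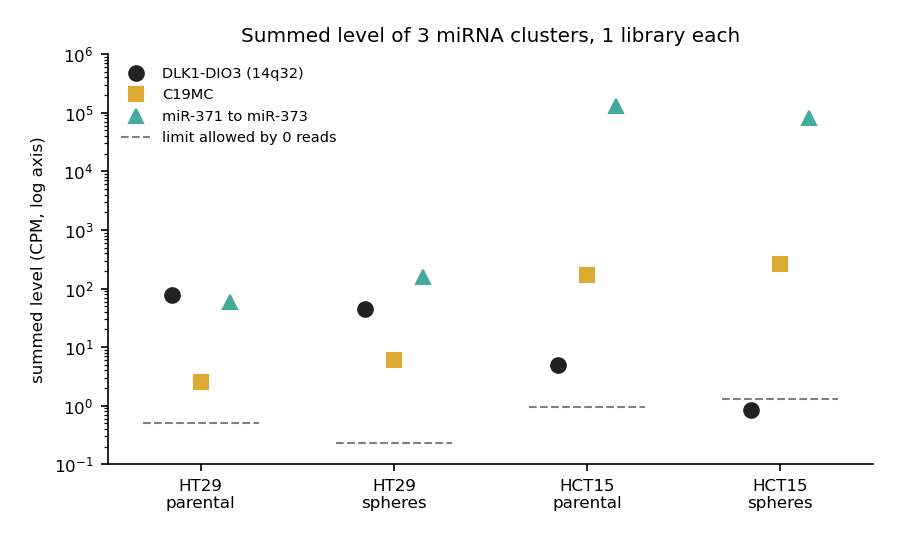
Summed level in CPM (log axis) of the 14q32 members (circles), the C19MC members (squares) and miR-371 to miR-373 (triangles) in each of the 4 libraries, 1 library per point; dashed lines mark the level that 0 reads of a single miRNA allow. The 14q32 sum is 76.8 and 44.2 CPM in HT29 and 5.02 and 0.860 CPM in HCT15, while the other clusters are higher in HCT15 than in HT29.

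Other stem-cell and placental miRNA clusters were not low in HCT15. C19MC, an imprinted primate cluster on chromosome 19 best known from placenta, had 58 rows in each line. Its HT29 sums were 2.58 CPM (parental) and 6.10 CPM (spheres), and its HCT15 sums were 172 and 259.7 CPM. The miR-371 to miR-373 cluster, known from embryonic stem cells, summed to 59.6 and 159 CPM in HT29 and to 128119 and 82540 CPM in HCT15. The order of the lines was therefore reversed for these clusters. The region at 14q32 was the highest of the 3 in HT29 parental cells and the lowest of the 3 in both HCT15 libraries.

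Markers of the labelled tissue were detected in both lines. Intestinal epithelial miRNAs (miR-192, miR-194, miR-215 and miR-375) had sums of 118504 CPM (parental) and 186437 CPM (spheres) for HT29, and of 13329 and 10804 CPM for HCT15. In HCT15 most of this was miR-375 (10451 and 7538 CPM), while miR-192, the highest in HT29 at 92207 and 157906 CPM, had 2582 and 3029 CPM. The miR-200 family of epithelia summed to between 12936 and 58233 CPM. Of the stromal markers, whose cells are known for 14q32 miRNAs, 5 of 10 rows were detected in each HT29 library, with sums of 10.3 CPM (parental) and 9.14 CPM (spheres), and miR-214 was at 0 in all 4 libraries. In HCT15 the stromal sum was 35.7 CPM in both cultures, with 5 and 4 of 10 rows detected. Neural markers, among which miR-124 had 0.172 CPM in the HT29 parental library and 0 in the other 3, summed to 720 and 663 CPM in HT29 and to 26.02 and 18.1 CPM in HCT15, and the HT29 sums were nearly all miR-338 (679 and 643 CPM). Muscle markers summed to 166 and 1159 CPM in HT29, nearly all of it miR-1, and were at 0 in HCT15. Blood-cell markers summed to 483 and 484 CPM in HT29, mostly miR-142 (459 and 472 CPM), and to 60.8 and 62.8 CPM in HCT15. The endothelial marker miR-126 had 293 and 256 CPM in HT29 and 127 and 120 CPM in HCT15. The part of all these markers in the values below was not tested.

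Detection followed the same order. In HT29, 36 of 70 rows (51.4%) had a read in parental cells and 41 (58.6%) in spheres, close to the 52.3% and 56.7% of all names listed. At the depth of the parental library, 32.8 rows would be expected in spheres. In HCT15, 6 of 76 rows (7.89%) had a value above 0 in parental cells and 1 (1.32%) in spheres, where 47.0% and 28.1% of all names did. Thinned to the depth of HCT15 spheres, the HT29 libraries would still show 28.0 and 22.7 rows, against 5.09 in HCT15 parental cells. In HCT15 spheres 19 names stood at about 1 read, against 200 in parental cells, and whether single reads were dropped before deposit was not tested. The level that 0 reads still allow was 0.517 CPM (parental) and 0.234 CPM (spheres) for HT29, and 0.940 and 1.29 CPM for HCT15.

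In HT29, 34 rows were read in both cultures, 2 in parental cells alone (up to 3 reads), 7 in spheres alone (up to 11 reads) and 27 in neither. Of all 1921 HT29 names, 1005 were read in parental cells and 1090 in spheres, the deeper library. The same split was not made for all names, so these counts are no result about the members. By family, 33 of 46 had a read in at least one HT29 library and 13 had none. Only 18 rows reached 10 reads over both libraries. The 25 rows with 1 to 9 reads together held 47 parental and 53 sphere reads, with no row above 6 and 7.

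miR-379-5p, the first product of the distal cluster (MIR379, 101022066 to 101022132), was the leading member. It was read 167 times in HT29 parental cells and 272 times in spheres, which is 28.8 and 21.3 CPM. Its log2 ratio of spheres over parental cells after TMM scaling was 0.10 (95% interval -0.18 to 0.39), an interval that spans 0. By total counts the sphere level was 0.739 times the parental one (0.607 to 0.902), so the direction for miR-379-5p depended on the scaling. Its share of the reads of the region was 37.4% (33.1 to 42.0) in parental cells and 48.1% (43.97 to 52.2) in spheres, intervals that do not overlap. Shares of one total depend on each other, and the miR-376 rows fell from 19.5% of these reads in parental cells to 5.30% in spheres. The higher share of miR-379-5p is therefore not a result separate from that fall. The 5 leading members, miR-379-5p, miR-494, miR-376c, miR-381 and miR-134, together held 68.8% of the reads of the region in parental cells and 70.1% in spheres.

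**Figure D2:**
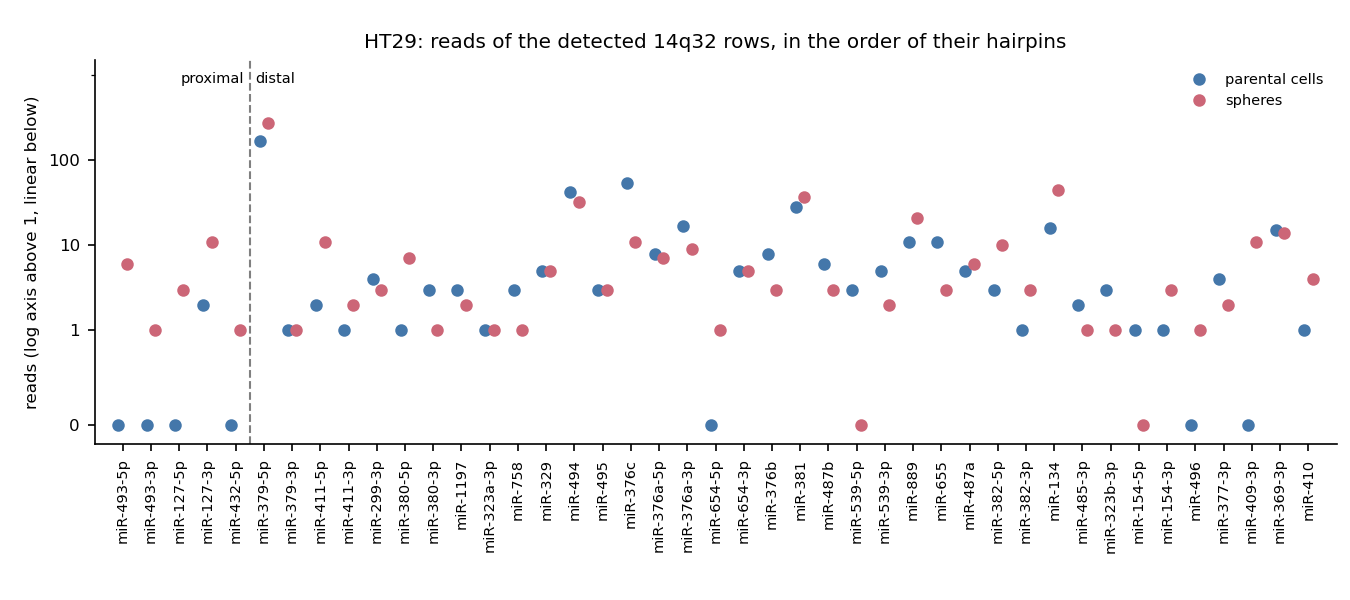
Reads of each 14q32 row detected in HT29 (vertical axis logarithmic above 1 and linear below) in the order of the hairpins along the chromosome, for parental cells (blue) and spheres (red), 1 library each; the dashed line parts the proximal from the distal cluster. miR-379-5p stands highest in both libraries at 167 and 272 reads, and the proximal rows have 2 reads in parental cells and 22 in spheres.

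The other leading members differed in the direction of their ratios. miR-376c had 54 parental and 11 sphere reads (9.30 and 0.860 CPM), with a log2 ratio of -2.65 (-3.98 to -1.94), the lowest of the 18. miR-494, from an intron of MEG8, had 42 and 32 reads (7.23 and 2.50 CPM), with a ratio of -0.94 (-1.70 to -0.29). miR-381 had 28 and 37 reads (4.82 and 2.89 CPM), with a ratio of -0.19 (-0.95 to 0.56). After scaling, parental cells were thus higher for the first 2, and the interval for miR-381 spanned 0.

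miR-134, known in neurons as a regulator of dendritic spines, had 16 parental and 45 sphere reads (2.76 and 3.52 CPM). Its log2 ratio was 0.83 (0.04 to 1.81). That interval would span 0 by total counts, which move both ends of every HT29 interval by -0.54. miR-134 was the only one of the 5 leading members with more CPM in spheres. miR-889 had 11 and 21 reads (1.89 and 1.64 CPM, ratio 0.30, -0.78 to 1.53). miR-369-3p had 15 and 14 reads (2.58 and 1.09 CPM, ratio -0.62, -1.86 to 0.45). Neither of these 2 differed beyond counting error.

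Of the 18 rows with at least 10 reads, 3 (16.7%) were at least 2-fold higher in spheres, where 15.6% of the 754 HT29 miRNAs at that minimum were. At least 2-fold lower were 4 (22.2%), against 17.9% of those 754. Among the 483 miRNAs no more abundant than miR-379-5p the shares were 17.0% and 17.6%. The members' shares were close to both backgrounds and are no result about the members. Their median log2 ratio was -0.34, against -0.09 over the 754, with 7 members above 0 and 11 below. Total counts moved the median log2 ratio of the 754 to -0.60 and that of the members to -0.76. The split was then 1 higher and 7 lower, against 7.43% and 33.8% of all. With upper-quartile scaling it was 5 higher and 4 lower, against 21.5% and 13.4%.

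The 4 lower members were miR-376c, miR-655 (11 and 3 reads, ratio -1.82, -4.96 to -0.55), miR-376b (8 and 3 reads, -1.43, -4.56 to 0.04) and miR-376a-3p (17 and 9 reads, -1.30, -2.87 to -0.27). The 3 higher were miR-127-3p and miR-411-5p, each with 2 reads in parental cells and 11 in spheres (1.30, -0.34 to 5.07), and miR-409-3p, with 0 and 11 reads. No ratio is given for miR-409-3p, whose parental count was 0; the lower end of its 95% interval was 0.73 on the log2 scale after TMM scaling. All 3 higher members thus rested on 2 or fewer parental reads. A prior count of 10 reads in place of 2 left miR-376c alone past 2-fold.

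The remaining named members lay within 2-fold. miR-382-5p had 3 and 10 reads (0.84, -0.82 to 3.64) and miR-376a-5p 8 and 7 (-0.63, -2.49 to 0.87). miR-487a had 5 and 6 reads (-0.25), and miR-329 and miR-654-3p had 5 in each library (-0.43).

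**Figure D3:**
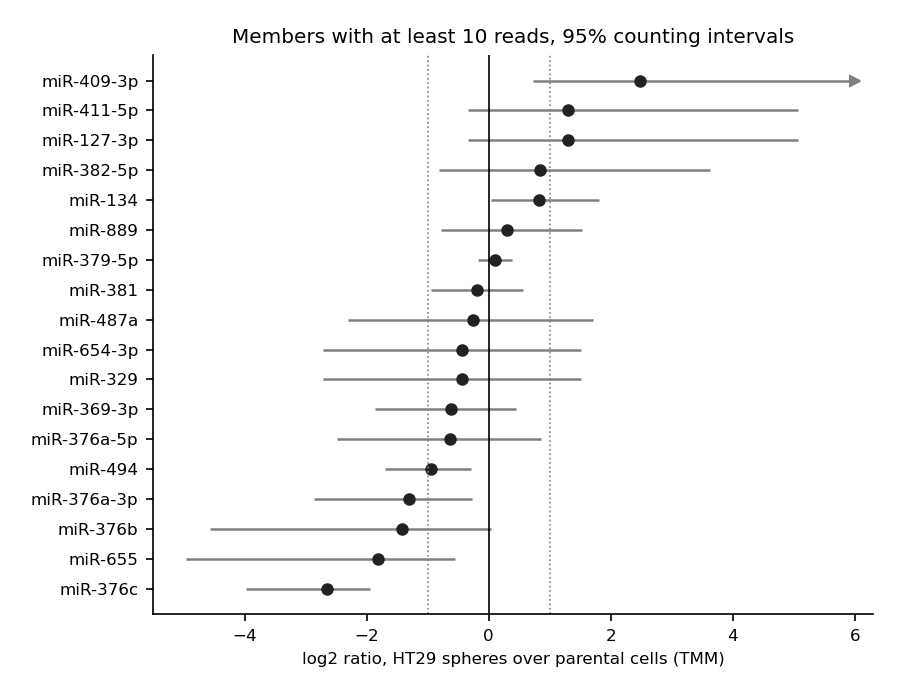
Log2 ratio of HT29 spheres over parental cells after TMM scaling (horizontal axis) for the 18 members with at least 10 reads; points are ratios with a prior count of 2, lines 95% counting intervals, the arrow an interval with no upper limit, and dotted lines mark 2-fold. miR-376c is lowest at -2.65, and most intervals span 0.

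All 4 miR-376 rows had ratios below 0, from -2.65 for miR-376c to -0.63 for miR-376a-5p, and the intervals of miR-376a-5p and miR-376b spanned 0 (the family was singled out after its values were seen). Its 4 HT29 rows had 87 parental and 30 sphere reads, 14.98 and 2.34 CPM, a sphere level 0.228 times the parental one after scaling (0.145 to 0.348). Within the region, a measure that no scaling between libraries can move, the family went from 19.5% (16.1 to 23.4) of the reads in parental cells to 5.30% (3.74 to 7.47) in spheres. miR-376c alone went from 12.1% (9.40 to 15.5) to 1.94% (1.09 to 3.45). Without it, the miR-376a and miR-376b rows still had 33 and 19 reads, or 7.40% (5.32 to 10.2) and 3.36% (2.16 to 5.18). The 4 miR-376 hairpins lie within 1.16 kb (MIR376C start, 101039690; MIR376A1 end, 101040849), with no annotated host gene on their strand. MIR654, between MIR376A2 and MIR376B, gave 5 miR-654-3p reads in each library. These are 0.861 CPM in parental cells and 0.391 CPM in spheres, with a log2 ratio of -0.43 (-2.72 to 1.52).

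The proximal cluster showed the opposite. Its 16 HT29 rows had 2 parental reads, both of miR-127-3p, and 22 sphere reads. The sphere reads were 11 of miR-127-3p, 3 of miR-127-5p, 6 of miR-493-5p, 1 of miR-493-3p and 1 of miR-432-5p. The sums were 0.344 and 1.72 CPM, with a log2 ratio of 2.86 (0.84 to 5.99). As a share of the reads of the region the proximal cluster took 0.448% (0.123 to 1.62) in parental cells and 3.89% (2.58 to 5.81) in spheres. No row of the miR-770, miR-337, miR-665, miR-431, miR-433, miR-136 or miR-370 families had a read in either HT29 library. The distal cluster, with 444 and 544 reads, had a log2 ratio of -0.31 (-0.49 to -0.12), or -0.07 (-0.27 to 0.12) without the miR-376 rows.

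**Figure D4:**
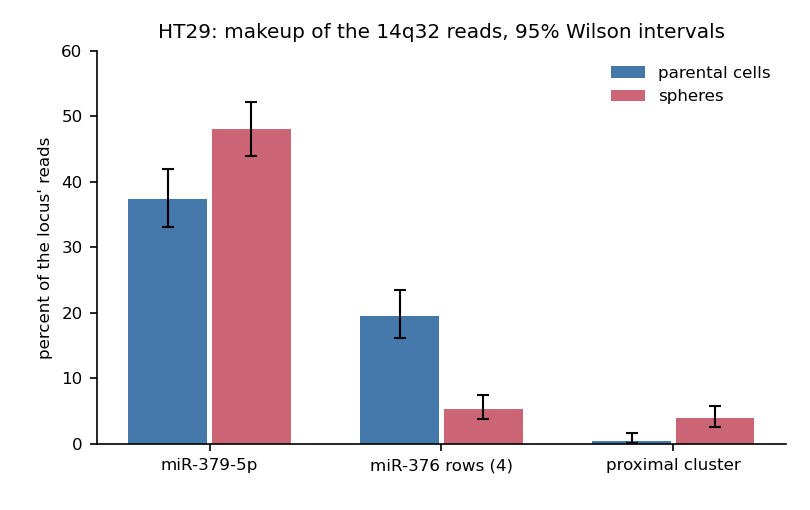
Percent of the 14q32 reads of HT29 (vertical axis) from miR-379-5p, the 4 miR-376 rows and the proximal cluster in parental cells (blue) and spheres (red); bars are shares of 446 and 566 reads in 1 library each, and error bars are 95% Wilson intervals. The miR-376 share is 19.5% and 5.30%, and the proximal share 0.448% and 3.89%.

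The distal cluster was also divided by the noncoding gene annotated around its hairpins, a split that was not planned. The 11 families from MIR379 to MIR495, in introns of MEG8, held 236 reads in HT29 parental cells and 341 in spheres (log2 ratio -0.07, -0.31 to 0.18). The 5 families from MIR381 to MIR655, in introns of MIR381HG, held 64 and 66 (-0.56, -1.07 to -0.04). That interval would span 0 with DESeq2 size factors, which move every HT29 log2 ratio of a sum by 0.06. The 9 families from MIR487A to MIR377, with no host gene on their strand, held 36 and 72 (0.40, -0.20 to 1.02). The 6 from MIR541 to MIR656, within MEG9, held 16 and 29 (0.26, -0.67 to 1.24). The stretch of the miR-376 hairpins, from MIR376C to MIR1185-2, held 92 and 36 reads (-1.95, -2.55 to -1.38), of which 87 and 30 are the miR-376 reads already described.

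The sum over all 70 HT29 rows combined these parts. After TMM scaling the summed sphere level was 0.837 times the parental one (0.738 to 0.9502), a log2 ratio of -0.26. By total counts it was 0.576 times (0.508 to 0.654). With upper-quartile scaling the log2 ratio was 0.01, so the direction of the sum depended on the scaling. Over the 6 scalings run, the miR-376 sum ranged from -2.68 to -1.87 and the proximal sum from 2.32 to 3.12. A scaling moves every HT29 sum by the same amount, here from -0.54 to 0.26 against TMM. Sums this far from 0 could not change direction, so their unchanged signs are no check on them.

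**Figure D5:**
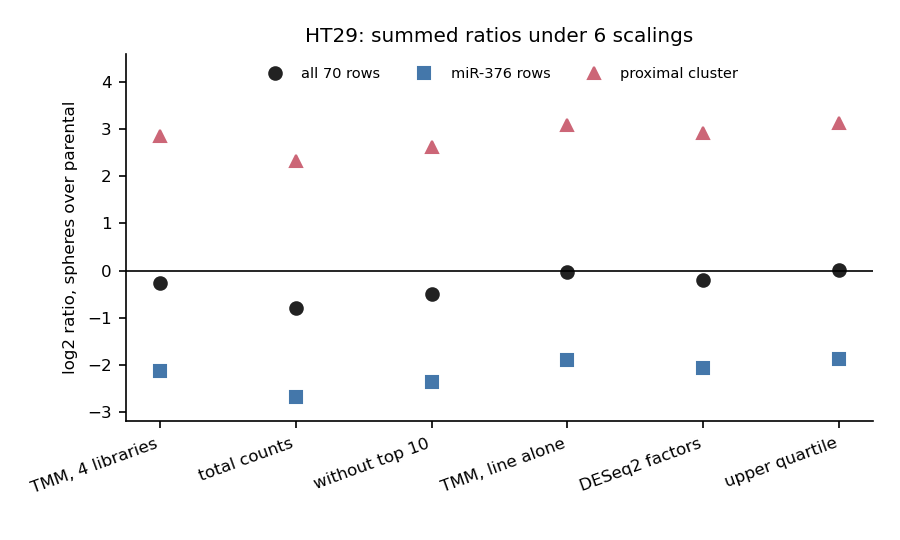
Log2 ratio of HT29 spheres over parental cells (vertical axis) for the sum of all 70 member rows (circles), the 4 miR-376 rows (squares) and the proximal cluster (triangles) under 6 scalings between libraries (horizontal axis). The full sum lies between -0.80 and 0.01, the miR-376 rows at or below -1.87 and the proximal cluster at or above 2.32.

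Arm use differed between hairpins. The 3p arm of miR-379 had 1 read beside 167 of the 5p arm in HT29 parental cells (0.595%, 0.105 to 3.29) and 1 beside 272 in spheres (0.366%, 0.0647 to 2.05). miR-369 was read only from its 3p arm, with 15 and 14 reads, and miR-409 only from its 3p arm, with 11 sphere reads. miR-376a was read from both arms, the 3p row giving 68.0% (48.4 to 82.8) of 25 parental reads and 56.3% (33.2 to 76.9) of 16 sphere reads. This family has the hairpins MIR376A1 and MIR376A2, and a miR-376a-2-5p row is listed for HCT15 but not for HT29. These shares are therefore not the arm use of a single hairpin. For miR-380 the 3p arm had 3 of 4 reads in parental cells and 1 of 8 in spheres, with intervals (30.1 to 95.4% and 2.24 to 47.1%) that overlapped. Arm shares were computed only for families with both arms listed and at least 10 reads over the 2 libraries of a line. None of these with reads in both cultures had 3p shares whose intervals parted, and most rested on few reads per library.

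In HCT15 the members detected were few. miR-127-3p was listed at 1.30 RPKM in parental cells, about 8 reads, and at 0.527 RPKM in spheres, about 2 reads. It was the one member listed above 0 in both HCT15 libraries and the one to reach 10 reads. Its log2 ratio was -0.82 (-4.49 to 1.11), so a difference was not detectable at this depth, and 0 of 1 members passed 2-fold where 8.20% of 512 HCT15 miRNAs were higher and 16.4% lower. The others appeared in parental cells alone, at 0.486 RPKM for miR-381-3p, 0.319 for miR-411-5p, 0.173 for miR-299-3p and 0.160 each for miR-410 and miR-889. These equal about 3, 2, 1, 1 and 1 reads. Of all 2041 HCT15 names, 959 were above 0 in parental cells and 574 in spheres, the shallower library.

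miR-379-5p, miR-376c-3p, miR-494 and miR-134, leading members in HT29, were listed at 0 in both HCT15 libraries. The proximal cluster, at 2 of 446 reads in HT29 parental cells, gave 8 of the 16 HCT15 parental reads and both sphere reads. The interval of the parental share was 28.0 to 72.0%. The distal cluster had about 8 reads in parental cells and 0 in spheres. The 95% interval of its ratio ran from 0 to 1.01 after TMM scaling, so a difference was not detectable, and from 0 to 0.804 by total counts. The summed HCT15 ratio was 0.216 (0.0241 to 0.917), a log2 ratio of -2.21, and it rested on 16 and 2 inferred reads.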

How the data were processed

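Small RNA was sequenced in 4 libraries. For HT29 the authors deposited counts of reads for each miRNA. For HCT15 the authors deposited RPKM. Both follow miRBase R19, per the file headers, and the submitters' processing notes name hg19. Read trimming, the aligner and the handling of multiply matching reads were not stated in the labels or headers.

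HCT15 read numbers are approximate. The commonest low RPKM values, 0.162 in parental cells and 0.527 in spheres, were taken as 1 and 2 reads; with a tolerance of 0.02 reads, whole numbers came from 46.3% of 499 and 35.9% of 195 low values, so the reads were rounded, and intervals computed from them are approximate.

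Levels are CPM of all listed reads. Ratios used TMM scaling over the 1882 names in all 4 files (edgeR 4.0.16 in R 4.3.3), a prior count of 2 for single members and none for sums, and exact conditional binomial 95% intervals (Python 3.11.15, scipy 1.17.1); shares have Wilson intervals. The code was tested on simulated data. Alternatives were total counts, TMM per line, DESeq2 1.42.0 size factors, upper quartile, leaving out the 10 most abundant miRNAs, and other prior counts and read minimums. The plan assumed counts and allowed for normalized values.

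Members with at least 10 reads over the 2 libraries of a line were named, up to 20 per line, with those past 2-fold. Members and lists were chosen with earlier results of these data known. Sequences came from RefSeq, which matched 68 of 70 HT29 members.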

Additional observations from a re-analysis of the deposited data

Results flagged for a closer look

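The proximal cluster and its main product had ratios of opposite sign in the 2 lines. miR-127-3p had a log2 ratio of spheres over parental cells of 1.30 in HT29 (2 and 11 reads) and -0.82 in HCT15 (about 8 and 2 reads). The whole proximal cluster, which holds those reads, had 2.86 in HT29 (2 and 22 reads) and -1.21 in HCT15 (about 8 and 2 reads). In HCT15 the cluster and miR-127-3p hold the same reads. Their ratios differ only because the prior count of 2 is used for single members and not for sums. Each line has 1 library per culture, so the difference between the lines was not tested, and the intervals span 0 for miR-127-3p in both lines and for the proximal cluster in HCT15.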

How the results depend on the processing

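No paired analysis was possible because each line and culture has 1 library and the labels give no replicate numbers. The summed HT29 log2 ratio of -0.26 was -0.80 with total counts, -0.49 without the 10 most abundant miRNAs, -0.031 with TMM on the line alone and 0.0089 with the upper quartile. It was -0.52 without miR-379-5p and -0.021 without the 4 miR-376 rows, the last chosen after seeing the data. For the distal cluster, in the order of those 4 scalings, it was -0.85, -0.55, -0.081 and -0.042. The HT29 members' median ratio of -0.34 was -0.76, -0.52, -0.17 and -0.15 under these scalings, -0.19 with a minimum of 50 reads and -0.18 with a prior count of 10. The 3 higher and 4 lower HT29 members became 1 and 7 under total-count scaling, 5 and 4 under upper-quartile scaling, 6 and 10 without a filter on low counts, and 0 and 1 with 50 reads or with a prior count of 10. The ratio of the one HCT15 member with 10 reads, -0.82, was -1.03 with total counts or the deposited values, -0.96 without the 10 most abundant, -0.67 with DESeq2 size factors, -0.63 with the upper quartile, -0.97 with a prior count of 1 and -0.36 with a prior count of 10. With all detected HCT15 members the median was -0.65. The count of HCT15 members at least 2-fold lower, 0 of 1, was 1 of 1 with total counts or the deposited values and 1 of 6 with no filter. With total counts 27.5% of 512 HCT15 miRNAs were lower. At a minimum of 10 reads per library, detection was 9 (parental) and 11 (spheres) rows for HT29 and 0 and 0 for HCT15; at 3 reads it was 27 in HT29 spheres and 2 and 0 in HCT15 parental cells and spheres. The HCT15 sum could not be computed without miR-127-3p, since no sphere read remained, and no HCT15 member reached 50 reads. Over 7 settings each, miR-376c stayed past 2-fold in 7, miR-376a-3p, miR-376b, miR-655 and miR-409-3p in 6, and miR-127-3p and miR-411-5p in 5. For miR-409-3p this used a ratio made finite by the prior count. The scalings among these settings move HT29 sums by -0.54 to 0.26 and single members by less. The 4 lower members and miR-409-3p could not come within 2-fold by such moves, so their counts are no check on them. Of 134 values of named members under other settings, 1 lay outside the member's counting interval, miR-379-5p with total counts (-0.43). Most of these intervals were far wider than the moves, so this count is no check on the members. With so few reads, the depth limits what any member can show.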
